A study of Homo sapiens with 18 samples.

Results

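The comparison described here is the effect of neocarzinostatin (NCS) in cells that all received the MDM2 degrader MD-224. It rests on 6 of the 18 RNA-seq libraries of the study, 3 a group, chosen by their labels, and on all 3074 genes that the deposited table lists. The cells were SJSA-1, an established human osteosarcoma line that carries extra copies of the MDM2 gene, so the results describe 1 line. The first group had NCS at 1 µg/mL for 72 h, and the second had the vehicle DMSO for 72 h. Both received 1 µM MD-224 for the last 24 h, after 48 h of NCS or DMSO, which were then refreshed. The remaining groups had NCS or DMSO for 72 h with 1 µM MI-1061, an MDM2 inhibitor, or with DMSO in place of a compound for the last 24 h. The protocol text writes the inhibitor's number with its digits in another order, and the sample titles were followed.

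NCS is an enediyne antibiotic that cuts both strands of DNA. Such breaks activate the transcription factor p53, which MDM2 normally ubiquitinates and so marks for destruction. MI-1061 occupies the p53-binding pocket of MDM2, whereas MD-224 joins an MDM2 ligand to a ligand of the cereblon ubiquitin ligase, so that MDM2 itself is degraded. MDM2 is also a p53 target gene, which closes a feedback loop. In many cell types lasting DNA damage is followed by NF-kB activity and by the secretion of cytokines, proteases and growth factors.

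The values are normalized counts from poly(A)-enriched RNA. The means of NCS + MI-1061 libraries exceeded those of DMSO libraries without a compound by 1.75-fold or more in all listed genes (median 2.997-fold), so the table is a selection and genes outside it are not analysed here. The ratio of the 2 means compared here ran between 0.334 and 112 (median 1.36). Normalized counts of the listed genes summed to 9132301 to 10630547 in NCS + MD-224 libraries and 6784126 to 6929260 in DMSO + MD-224 libraries, which are not sequencing depths. Reads could be recovered in 5 of the 6 libraries, and the listed genes held 9154188 and 10080458 reads with NCS and 6039270 to 10535849 without it. No value in the 6 libraries was 0. The labels do not say that replicates were separate cultures, so p-values measure the spread between these samples, which may be technical. In bulk RNA, fewer cells of a type and less RNA per cell cannot be told apart.

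NCS mostly raised the listed genes in MD-224-treated cells. Of the 3073 tested genes, limma called 1198 higher (39.0%) and 18 lower (0.586%) at a Benjamini-Hochberg adjusted p under 0.05, and 1857 were not called. With the replicate number as a block, 1472 were called higher and 40 lower. All 3 NCS + MD-224 libraries lay above all 3 DMSO + MD-224 libraries in 1490 genes (48.5%) and below them in 58 (1.89%). The median change was 1.36-fold, with 5% of genes under 0.809-fold and 5% over 4.51-fold. Of the genes called higher, 617 were at least 2-fold, 199 at least 4-fold and 55 at least 8-fold higher, whereas 4 of the genes called lower were down at least 2-fold.

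The size of the balance between both directions depended on the scale. The authors' normalization left the median log2 change at 0.45, and scaling on the listed genes alone brought it to 0.00 (TMM) or −0.05 (median of ratios). Both scalings bring the typical change of the listed genes near 0 by construction, so these medians are no result. The split of higher and lower calls was then 428 and 224 with TMM and 394 and 288 with the median of ratios, against 1198 and 18. All listed genes were higher with NCS and MI-1061 than with DMSO and no compound, and the part of this selection in the balance was not tested. Changes of single genes are set beside the median of 1.36-fold, which is that of the tested genes of this selection only. Within the NCS + MD-224 group, replicate 1 was the highest library in 721 of the 1198 genes called higher and replicate 2 the lowest in 688, and the part of this in the counts was not tested.

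**Figure D1:**
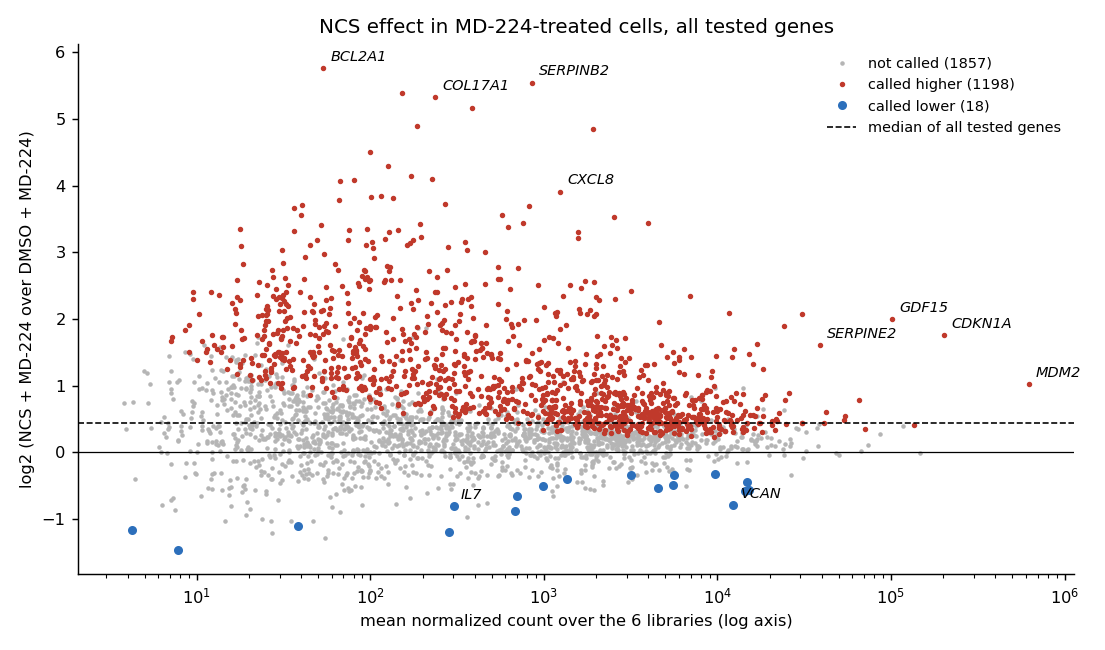
Each point is 1 of the 3073 tested genes, with its mean normalized count over the 6 libraries on a log axis and its log2 change (NCS + MD-224 over DMSO + MD-224) on the vertical axis. Red points are the 1198 genes called higher and blue points the 18 called lower, and the dashed line is the median of 0.45; MDM2, CDKN1A and GDF15 combine a high level with a rise.

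Among the largest rises were genes that were close to silent in DMSO + MD-224 cells. BCL2A1 (chromosome 15, 79960892 to 79971196, GRCh38.p14), an anti-apoptotic BCL2 relative, had normalized counts of 99.1, 83.1 and 137 in NCS + MD-224 libraries, against 1.15, 0.644 and 1.05 in DMSO + MD-224 libraries. Each of those DMSO values is 1 read, and the recovered reads of 5 libraries, 229 in 2 with NCS and 3 in 3 without it, gave a ratio of 133 with an exact 95% interval of 45.0 to 651 for counting error only. SERPINB2, a plasminogen activator inhibitor, had 1316, 389 and 3325 with NCS and MD-224, against 20.7, 24.5 and 29.3 with DMSO and MD-224. MMP3, a matrix-degrading protease, had 709, 300 and 1254, against 25.2, 15.5 and 12.6. In all 3 genes the groups were far apart, and for SERPINB2 the NCS libraries themselves spread widely.

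COL17A1, a hemidesmosome collagen (chromosome 10, 104031286 to 104085880), had 573, 560 and 257 with NCS and MD-224, against 13.8, 12.9 and 5.23 with DMSO and MD-224 (40.2-fold; log2 5.33, SE 0.61; limma adjusted p = 8.04e-06). ARC, an activity-regulated synaptic gene, had 463, 300 and 528, against 25.2, 34.8 and 14.7 (17.1-fold; adjusted p = 5.92e-07). ABCC9, a potassium channel regulator, averaged 3614 ± 1577 with NCS and MD-224 and 227 ± 283 with DMSO and MD-224 (SD, n = 3 each), and the DMSO libraries held 551, 25.8 and 105. The rest of the 12 largest rises were ANKRD26P1, a pseudogene (41.8-fold), CGB8, a chorionic gonadotropin subunit (29.8-fold), ALOXE3, an epidermal lipoxygenase (22.7-fold), SPINK1, a trypsin inhibitor (19.6-fold), RSAD2 (17.8-fold) and IGFL2, a growth factor-like gene. CGB8 has near-identical copies that can share its reads, so its values are uncertain. Single libraries set the size of several of these changes: the log2 change of SERPINB2 (5.55) was 6.36 without NCS replicate 2 and 4.81 without NCS replicate 3, and that of ABCC9 (4.85) was 5.97 without DMSO replicate 1 and 3.79 without DMSO replicate 2. That of ANKRD26P1 (5.38) was 6.03 without DMSO replicate 1, that of CGB8 (4.90) was 5.56 without DMSO replicate 1 and 4.26 without DMSO replicate 2, and that of IGFL2 (4.09) was 3.36 without DMSO replicate 3. RSAD2 (4.15) came to 3.47 without NCS replicate 3.

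**Figure D2:**
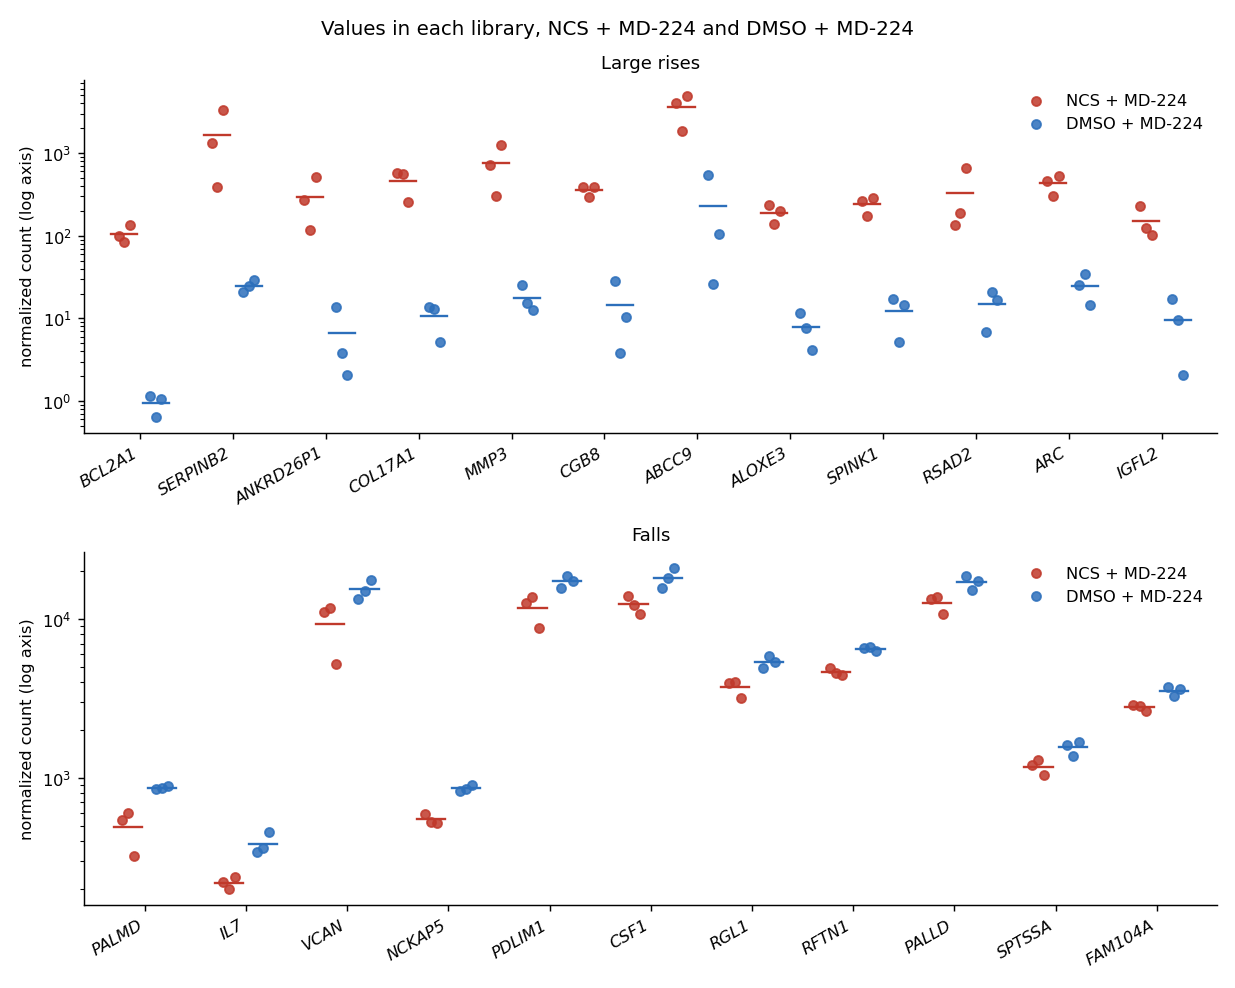
Normalized counts on a log axis in each library of NCS + MD-224 (red, left of each pair) and DMSO + MD-224 (blue, right), for 12 large rises and 11 falls among called genes with a mean of at least 50; bars are group means. Only genes without overlap between the groups were chosen, so the lack of overlap is no result. The rises span a far wider range than the falls, which run between 0.545-fold (PALMD) and 0.788-fold (FAM104A).

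The p53 targets were nearly all in the table, 53 of the 60 genes on the list, and 30 rose and 1 fell, a share to be read against the 39.0% called higher among all tested genes. Their median change of 1.45-fold was close to the 1.36-fold of all genes, and with TMM scaling 10 rose and 8 fell. In the feedback group 3 of 5 listed genes rose (60%). MDM2 (chromosome 12, 68808172 to 68850686) had 961730, 838975 and 697739 with NCS and MD-224, against 375912, 481272 and 366311 with DMSO and MD-224 (2.04-fold; log2 1.03, SE 0.17; limma adjusted p = 0.000176). It made up 7.53% to 9.19% of the listed counts in NCS + MD-224 libraries and 5.39% to 7.09% in DMSO + MD-224 libraries. PPM1D, a phosphatase that dampens p53 signalling, averaged 3207 ± 750 and 1892 ± 84.3 (1.67-fold; adjusted p = 0.00200), and TP53INP1, a stress-induced regulator of autophagy, rose 1.52-fold. The calls of PPM1D and TP53INP1 were lost with TMM scaling (log2 0.29 and 0.15), and that of MDM2 was kept (0.58).

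Of the 12 arrest genes all were listed and 8 rose (66.7%, against 39.0% of all tested genes). CDKN1A, which encodes the cell-cycle inhibitor p21 (chromosome 6, 36676463 to 36687332), had 412513, 251904 and 271554 with NCS and MD-224, against 104006, 83659 and 84506 with DMSO and MD-224 (3.37-fold; log2 1.75, SE 0.16; adjusted p = 1.05e-06). GADD45A, a DNA damage-inducible growth arrest gene, had 18595, 11736 and 12800, against 5230, 6144 and 4320 (2.72-fold; adjusted p = 0.000296). E2F7, a repressor of cell-cycle genes, averaged 7535 ± 1821 and 2761 ± 185 (2.68-fold; adjusted p = 1.26e-05), and the stress kinase PLK3 rose 2.50-fold. Groups did not overlap in these 4 genes, with NCS above, as in 48.5% of all tested genes. SFN, the 14-3-3 sigma gene, named after its values were seen, had 232, 347 and 58.7, against 13.8, 34.8 and 2.09 (14.4-fold). The log2 change of SFN (3.84) was 2.88 without DMSO replicate 3, 4.65 without DMSO replicate 2 and 4.60 without NCS replicate 3.

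Death genes had the smallest median of the p53 groups (1.38-fold), and 7 of 17 listed genes rose (41.2%, against 39.0% of all tested genes) and 1 fell. The death receptor gene FAS had 5223, 4023 and 3694 with NCS and MD-224, against 2520, 2270 and 2233 with DMSO and MD-224 (1.82-fold; log2 0.87, SE 0.14; adjusted p = 0.000132). PHLDA3, an inhibitor of AKT signalling, rose 1.62-fold and AEN, a nuclease, 1.46-fold, and both calls were lost with TMM scaling (log2 0.25 and 0.10). BAX, the pore-forming mitochondrial death effector, named after its values were seen, had 9337, 9036 and 7649, against 9947, 11661 and 10807. BAX fell to 0.802-fold (limma adjusted p = 0.0341). Its groups did not overlap, with NCS below, as in 1.89% of all tested genes. That call was lost without NCS replicate 3 (log2 −0.23), DMSO replicate 2 (−0.26) or DMSO replicate 3 (−0.32), against −0.32 with all libraries.

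In the group for repair, metabolism and other functions 12 of 19 listed genes rose (63.2%, against 39.0% of all tested genes). The count was 6 without NCS replicate 1 and 7 without DMSO replicate 3. ABCA12, a lipid transporter gene, had 920, 896 and 412 with NCS and MD-224, against 151, 249 and 168 with DMSO and MD-224 (3.76-fold; adjusted p = 0.00107). POLH, a translesion DNA polymerase gene, rose 1.84-fold and RRM2B, which encodes a subunit of ribonucleotide reductase, 1.80-fold. The POLH call was lost with TMM scaling (log2 0.43), under which the ABCA12 and RRM2B calls were kept.

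**Figure D3:**
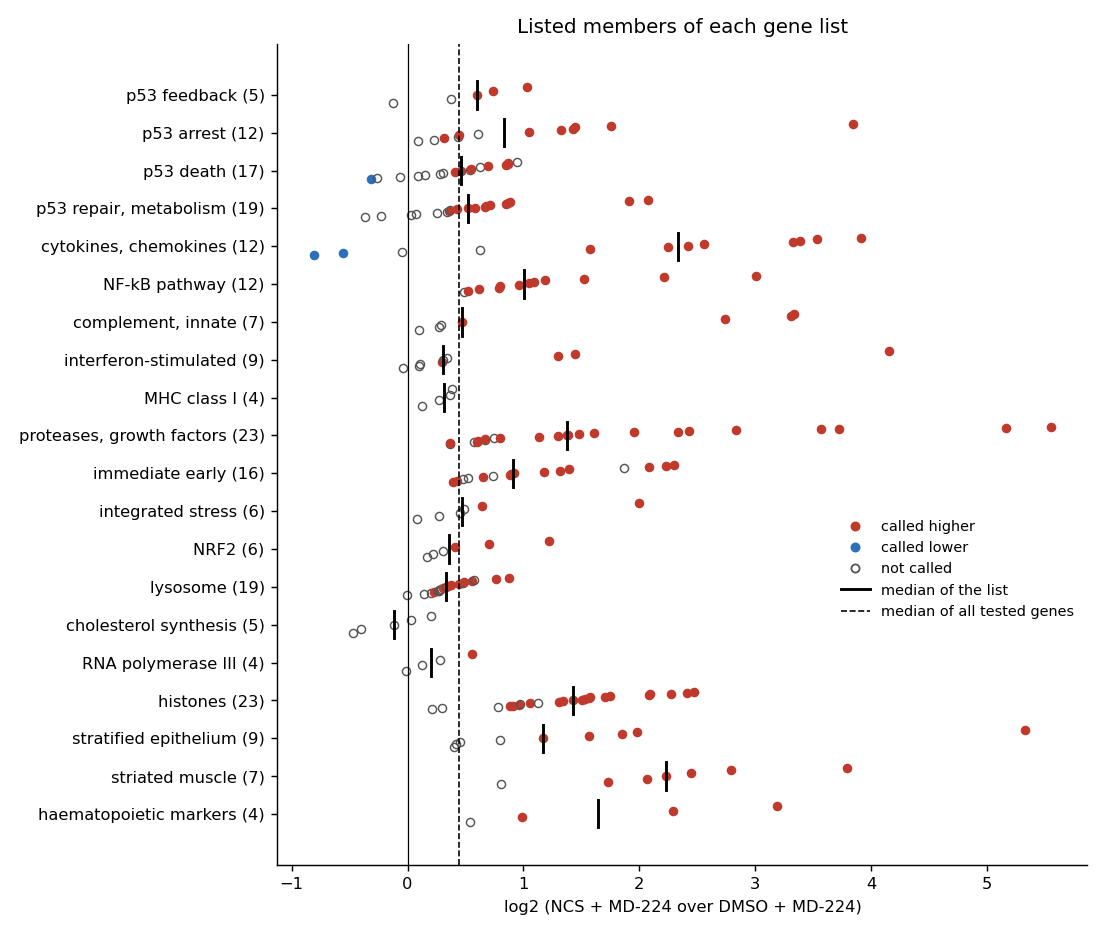
Each point is a listed member of a gene list, placed by its log2 change (NCS + MD-224 over DMSO + MD-224), red where called higher, blue where called lower and open where not called. Bars are list medians and the dashed line is the median of all tested genes, 0.45; of the lists shown, the cytokine and striated muscle lists have the highest medians, and the cholesterol synthesis list has the only one below 0.

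NF-kB is held in the cytoplasm by inhibitor proteins, and several of its target genes encode inhibitors of the same pathway. Of 24 pathway genes 12 were listed and 11 rose (91.7%, against 39.0% of all tested genes). The list median was 2.004-fold. After TMM scaling 6 of the list rose and 0 fell. BIRC3, a ubiquitin ligase of TNF receptor signalling (chromosome 11, 102317484 to 102339403), had 910, 678 and 845 with NCS and MD-224, against 73.4, 149 and 89.0 with DMSO and MD-224 (8.05-fold; log2 3.01, SE 0.39; limma adjusted p = 2.41e-05). TRAF1, an adaptor of TNF receptors, had 508, 349 and 482, against 88.3, 109 and 85.9 (4.65-fold). The deubiquitinases TNFAIP3 and CYLD, both inhibitors of NF-kB signalling, rose 2.13-fold (adjusted p = 0.000307) and 1.95-fold (adjusted p = 0.000152). In all 4 genes the groups did not overlap, with NCS above, as in 48.5% of all tested genes.

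Cytokine and chemokine genes had the highest median change of the lists. Of 33 on the list 12 were in the table. Among these 12, 8 rose (66.7%, against 39.0% of all tested genes) and 2 fell (16.7%, against 0.586%). Their median change was 5.03-fold. Under TMM scaling 7 of the 12 were called higher and 2 were called lower. IL1B had 5597, 2623 and 5864 with NCS and MD-224, against 427, 384 and 336 with DMSO and MD-224 (11.6-fold; log2 3.53, SE 0.44; adjusted p = 1.82e-05). IL1A, its neighbour on chromosome 2, had 1404, 848 and 1176, against 115, 122 and 85.9 (10.4-fold; adjusted p = 5.92e-07). IL32, an inflammatory cytokine, had 4172, 5593 and 6335, against 958, 1018 and 990 (5.34-fold; adjusted p = 7.39e-07). These 3 genes had no overlap between groups, with NCS above, as in 48.5% of all tested genes.

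CXCL8, the neutrophil chemokine interleukin 8, had 1519, 762 and 4783, against 75.7, 244 and 85.9 (15.0-fold), and its log2 change of 3.91 was 3.19 without NCS replicate 3 and 4.52 without NCS replicate 2. CXCL1 and CXCL3, chemokines of the same family, rose 4.73-fold and 10.0-fold, and IL6 rose 2.97-fold (not called with TMM scaling). These 3 were named after their values were seen. The IL6 call was lost without NCS replicate 1 (log2 1.64), NCS replicate 3 (1.34), DMSO replicate 1 (1.49) or DMSO replicate 3 (1.33), against 1.57 with all libraries. The 2 that fell were IL7, a lymphocyte growth factor, at 221, 199 and 237 against 340, 361 and 456 (0.572-fold; adjusted p = 0.00496), and CSF1, the macrophage growth factor (0.678-fold).

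Stretches of RefSeq promoters (GRCh38.p14) are shown for members that carry the NF-kB consensus, because the genes of both lists largely rose. Only the 250 bases before each start were searched, on both strands. The consensus was in 5 of 10 promoters of the NF-kB pathway list (50.0%; BIRC3, TNFAIP3, NFKBIZ, TNIP3 and NFKBIA) and in 4 of 10 of the cytokine list (40.0%; IL32, CXCL1, CXCL3 and IL6). It was in 11.8% of the 2255 promoters found for listed genes and in 9.57% of all 27305 promoters. A match is not a measurement of binding, and its relation to the rises was not tested. Each stretch has 60 bases, written 5′ to 3′ on the strand of the gene, with matches in capitals:
BIRC3, chr11:102317324-102317383, plus strand: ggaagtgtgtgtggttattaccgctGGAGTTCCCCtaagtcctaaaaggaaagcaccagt
TNFAIP3, chr6:137867179-137867238, plus strand: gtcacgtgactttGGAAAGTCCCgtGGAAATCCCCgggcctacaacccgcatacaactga
IL32, chr16:3065280-3065339, plus strand: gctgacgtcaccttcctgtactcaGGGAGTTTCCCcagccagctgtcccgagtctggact
CXCL1, chr4:73869290-73869349, plus strand: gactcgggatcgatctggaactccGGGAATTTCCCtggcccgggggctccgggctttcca
CXCL3, chr4:74038733-74038792, minus strand: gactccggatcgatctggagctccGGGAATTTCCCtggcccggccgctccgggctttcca

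Of 24 genes for complement and innate immunity 7 were listed and 4 rose (57.1%, against 39.0% of all tested genes). TREM1, a receptor that amplifies inflammatory signals, had 369, 241 and 182 with NCS and MD-224, against 18.4, 32.2 and 24.1 with DMSO and MD-224 (10.1-fold; limma adjusted p = 6.90e-06). C3, the central complement component, rose 9.91-fold and SAA1, an acute-phase protein gene, 6.69-fold. Interferon-stimulated genes were few in the table, 9 of 54. Of these 4 rose (44.4%, against 39.0% of all tested genes), and 2 did so without NCS replicate 2, DMSO replicate 1 or DMSO replicate 3. RSAD2, an antiviral enzyme, had 134, 189 and 660, against 6.88, 20.6 and 16.8. The antiviral GTPase gene MX1 rose 2.46-fold (adjusted p = 0.00868; not called with TMM scaling). ISG15, a ubiquitin-like protein gene (chromosome 1, 1013497 to 1014540), averaged 1942 ± 359 with NCS and MD-224 and 1536 ± 284 with DMSO and MD-224, with overlapping groups (1.26-fold; adjusted p = 0.302). With the replicate block its limma adjusted p was 0.0375 (0.0375 to 0.798 over all alternatives), and after TMM scaling its log2 estimate was −0.11. Of 16 genes for MHC class I presentation 4 were listed, 0 rose and 0 fell by limma, with a median of 1.25-fold, and 2 rose with the replicate block.

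Secreted proteases, their inhibitors and growth factors rose in 19 of 23 listed members (82.6%, against 39.0% of all tested genes). The list median was 2.59-fold, and TMM scaling left 11 that rose and 0 that fell. SERPINE2, a protease inhibitor of the cell surface (chromosome 2, 223975045 to 224039286), had 57195, 52443 and 67135 with NCS and MD-224, against 18864, 17737 and 21067 with DMSO and MD-224 (3.06-fold; log2 1.61, SE 0.13; adjusted p = 5.92e-07). AREG, the EGF receptor ligand amphiregulin, had 830, 393 and 275, against 39.0, 48.9 and 18.8 (13.2-fold), and the protease gene MMP10 had 67.5, 38.6 and 119, against 4.59, 3.86 and 6.28 (11.8-fold). Groups did not overlap in these 3 genes, with NCS above, as in 48.5% of all tested genes. On the list of immediate early genes and MAPK feedback regulators, 12 of 16 listed members rose (75%, against 39.0% of all tested genes). The median of this list was 1.87-fold, and 4 of its members rose after TMM scaling. EGR3 rose 4.69-fold and DUSP2, a MAPK phosphatase, 4.23-fold. FOSL1, an AP-1 subunit, had 10113, 6666 and 9230, against 3980, 3391 and 2550 (2.62-fold; adjusted p = 0.000333), and IER2 rose 1.86-fold (not called with TMM scaling).

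Stress and organelle genes were few in the table apart from the lysosome list. Of 6 listed genes of the integrated stress response 2 rose (33.3%, against 39.0% of all tested genes). The count was 1 without NCS replicate 1 or 3 or DMSO replicate 1 or 3. GDF15, a stress cytokine that p53 also targets, had 241246, 118241 and 132370 with NCS and MD-224, against 36540, 51058 and 31947 with DMSO and MD-224 (3.99-fold; log2 2.00, SE 0.44; adjusted p = 0.00197). Of 6 listed NRF2 targets 3 rose (50%, against 39.0% of all tested genes), and 1 did so with TMM scaling. Those called by limma included HMOX1, the haem oxygenase (2.33-fold, adjusted p = 0.000313), and SRXN1, which repairs oxidized peroxiredoxins (1.63-fold, not called with TMM scaling). Lysosome genes rose in 9 of 19 listed members (47.4%, against 39.0% of all tested genes) and in 15 with the replicate block, under which 47.9% of all tested genes rose. The count was 5 without NCS replicate 1 and 1 with TMM scaling, and the list's median of 1.26-fold was under that of all genes. CTSL, a lysosomal protease, had 20042, 17672 and 16688, against 8900, 11784 and 9151 (1.83-fold), and NPC1, which exports cholesterol from lysosomes, rose 1.70-fold (log2 0.77), a call that was lost with TMM scaling (0.32).

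Of 5 listed cholesterol synthesis genes 0 rose and 0 fell by limma (median 0.923-fold), and 2 fell after TMM scaling. Of 29 genes for the RNA polymerase III machinery 4 were listed and 1 rose (25%, against 39.0% of all tested genes). BRF2, a subunit of the initiation factor that polymerase III uses at U6-type promoters, had 3318, 2361 and 2932 with NCS and MD-224, against 2439, 1477 and 1990 with DMSO and MD-224 (1.47-fold; adjusted p = 0.0366), and the groups overlapped. That call was lost with TMM scaling (log2 0.11), and also without NCS replicate 1 (log2 0.45), NCS replicate 3 (0.54), DMSO replicate 2 (0.37) or DMSO replicate 3 (0.58), against 0.56 with all libraries. None of the 31 cell-cycle and replication genes on their list was in the table, and they are not analysed here.

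Histone genes rose in 18 of 23 listed members (78.3%, against 39.0% of all tested genes). The list median was 2.69-fold, and TMM scaling left 12 histone genes that rose and 0 that fell. These genes make the proteins that package DNA, and their replication-dependent transcripts usually end in a stem-loop without a poly(A) tail. By class, 2 of 2 linker histone H1 genes rose, 2 of 3 for H2A, 9 of 11 for H2B, 2 of 3 for H3 and 3 of 4 for H4. Leaving out 1 library left 1 of the H1 genes (NCS replicate 2, or DMSO replicate 1 or 3) or 1 of the H3 genes (NCS replicate 1 or 3, or DMSO replicate 2 or 3) called. HIST1H2BJ had 682, 513 and 381 with NCS and MD-224, against 118, 83.7 and 76.4 with DMSO and MD-224 (5.56-fold; log2 2.47, SE 0.24; limma adjusted p = 2.21e-06). HIST2H2BE had 1405, 2310 and 1929, against 462, 397 and 445 (4.24-fold), and HIST1H2BK had 3195, 3400 and 3434, against 1660, 1860 and 1822 (1.88-fold). In these 3 genes the groups did not overlap, with NCS above, as in 48.5% of all tested genes. HIST1H1E rose 5.31-fold, HIST2H3D 4.82-fold, HIST1H4H 3.26-fold, HIST1H2BG 2.95-fold and HIST1H2AC 2.53-fold. Histone genes have near-identical copies, so reads may be split between them and values of single genes are uncertain.

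Histone promoters are shown for members that carry the octamer ATTTGCAT (also read on the other strand as ATGCAAAT), an element known from histone H2B promoters. It was in 7 of 18 histone promoters (38.9%), in 2.00% of the promoters of all listed genes and in 1.66% of all RefSeq promoters, within the 250 bases before the start. The 3 genes below are those whose values were given above, and the capitals mark the octamer:
HIST1H2BJ, chr6:27132808-27132867, minus strand: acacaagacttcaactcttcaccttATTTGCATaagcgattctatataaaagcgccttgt
HIST1H2BK, chr6:27146870-27146929, minus strand: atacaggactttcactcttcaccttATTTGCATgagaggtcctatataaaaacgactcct
HIST2H2BE, chr1:149886694-149886753, minus strand: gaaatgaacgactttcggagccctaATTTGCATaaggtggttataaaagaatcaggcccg

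Genes known from other tissues were also among those that rose. Of 7 listed striated muscle genes 6 rose (85.7%, against 39.0% of all tested genes). The list median was 4.68-fold, and after TMM scaling 5 of the listed muscle genes rose. Their summed level was low, 1094 to 2030 in NCS + MD-224 libraries and 235 to 369 in DMSO + MD-224 libraries. XIRP1, an actin-binding repeat protein gene, had 152, 101 and 117, against 9.18, 12.2 and 4.19 (13.8-fold; adjusted p = 2.21e-06). MYPN, a sarcomere protein gene, rose 6.90-fold, TTN, the giant sarcomere protein titin, 5.46-fold, and XIRP2 4.19-fold. Genes of stratified epithelium and its attachment to the basement membrane rose in 5 of 9 listed members (55.6%, against 39.0% of all tested genes). Besides COL17A1 these included the laminin subunit gene LAMB3 (2.25-fold) and the keratin gene KRT15 (2.97-fold).

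Markers of other cell types moved as follows. Of 15 haematopoietic markers 4 were listed and 3 rose (75%, against 39.0% of all tested genes). The sum of the 4 was 3430 to 4531 in NCS + MD-224 libraries and 794 to 1090 in DMSO + MD-224 libraries. Most of this sum was CD68. The marker that was not called, CD163, averaged 13.7 with NCS and MD-224 and 7.50 with DMSO and MD-224, with overlapping groups. CD68, a lysosomal glycoprotein gene of macrophages, had 3708, 2816 and 3814, against 795, 746 and 574 (4.89-fold; limma adjusted p = 1.93e-05), and ITGAM, an integrin of myeloid cells, had 155, 105 and 141, against 6.88, 28.3 and 12.6 (9.08-fold). LAPTM5, a lysosomal protein gene of blood cells, overlapped between groups at 643, 497 and 280 against 186, 310 and 197, and its call was lost with TMM scaling (log2 0.54) and without NCS replicate 1 (0.73), NCS replicate 2 (0.92), DMSO replicate 1 (0.85) or DMSO replicate 3 (0.90), against 0.99 with all libraries. Epithelial markers (1 of 9 listed) and endothelial markers (2 of 8) had 0 genes that rose. The other markers on these lists are not analysed here, and the part of other cells in the results was not tested. For the labelled osteosarcoma identity, 4 of 13 bone lineage genes were listed, with a sum of 167879 to 199380 in NCS + MD-224 libraries and 108332 to 151716 in DMSO + MD-224 libraries. Of these 4 genes 2 rose (50%, against 39.0% of all tested genes). SPP1, the bone matrix protein osteopontin, rose 5.04-fold and BMP2, a bone morphogenetic protein, 3.29-fold. Most of the sum came from SPARC and COL1A2, which were not called (limma adjusted p = 0.0556 and 0.233). SPARC averaged 133004 with NCS and MD-224 and 101827 with DMSO and MD-224, and COL1A2 44021 and 32961.

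The 18 genes that fell had small changes. RFTN1, a lipid raft protein gene (chromosome 3, 16315845 to 16513699), had 4924, 4551 and 4425 with NCS and MD-224, against 6558, 6646 and 6321 with DMSO and MD-224 (0.711-fold; log2 −0.49, SE 0.11; limma adjusted p = 0.00237). PDLIM1 and PALLD, both linked to actin fibres, fell to 0.667-fold and 0.739-fold, and NCKAP5 to 0.637-fold. VCAN, the matrix proteoglycan versican, had 11155, 11666 and 5250, against 13402, 15042 and 17673 (0.577-fold). NCS replicate 3 was the lowest NCS library in 15 of the 18 genes. Without it 7 genes were called lower, and without DMSO replicate 3 there were 9. The calls of VCAN, PALMD, CSF1 and RGL1 were lost without NCS replicate 3 (log2 −0.42, −0.59, −0.46 and −0.42, against −0.79, −0.88, −0.56 and −0.53). Those of VCAN, PALMD and CSF1 were also lost without DMSO replicate 3 (−0.69, −0.86 and −0.46), and that of VCAN without DMSO replicate 2 (−0.81).

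The NCS effect with MD-224 was then set against the NCS effect without a compound, as the difference between both log2 changes in the same limma fit. That difference was positive in 125 genes (4.07%) and negative in 221 (7.19%). With TMM scaling the split was 201 and 127, and with the median of ratios 172 and 136. The DMSO libraries without a compound take part in the listing, and its part in the balance of both directions was not tested. The median NCS effect was 1.36-fold with MD-224 and 1.58-fold without a compound. Leaving out 1 library moved these counts by more than 1.5 times in 6 cases. They were 63 and 156 without NCS + MD-224 replicate 1, 98 and 135 without its replicate 3, and 68 and 111 without DMSO + MD-224 replicate 3. In the groups given no compound, leaving out NCS replicate 2 gave 67 and 115, and NCS replicate 3 gave 65 and 107. Leaving out replicate 1 of DMSO without a compound gave 79 and 164. Of the 125 genes, 113 were called higher by NCS with MD-224 and 82 had an NCS change below 0 without a compound. Of the 221 genes, 167 were not called with MD-224.

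E2F7 showed the most significant difference. It averaged 7535 ± 1821 with NCS and MD-224 and 2761 ± 185 with DMSO and MD-224, but 3127 ± 626 with NCS and 6863 ± 723 with DMSO where no compound was given (SD, n = 3 each; difference 2.57, SE 0.24; limma adjusted p = 1.62e-05). GRM8, a glutamate receptor gene, averaged 68.2 ± 20.5 and 4.58 ± 2.05 with MD-224, and 34.4 ± 8.44 and 52.4 ± 12.5 without a compound. The NCS changes with MD-224 and without a compound were 1.89-fold and 0.548-fold for SDC1, a cell-surface proteoglycan gene, 1.66-fold and 0.369-fold for the growth factor receptor gene FGFR2, 2.47-fold and 0.749-fold for NCEH1, a cholesterol ester hydrolase gene, and 1.46-fold and 0.407-fold for NEMP2, a nuclear envelope protein gene.

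In the opposite direction, MXD4, a repressor of the MYC network, averaged 4027 ± 251 with NCS and MD-224 and 4625 ± 550 with DMSO and MD-224, but 4032 ± 269 with NCS and 1454 ± 188 with DMSO where no compound was given (difference −1.67, SE 0.19; adjusted p = 9.85e-05). TMEM132B averaged 182 ± 15.1 and 120 ± 59.3 with MD-224, against 156 ± 31.1 and 10.2 ± 3.72 without a compound. For the cyclin-dependent kinase inhibitor gene CDKN2B the NCS changes were 0.962-fold with MD-224 and 2.66-fold without a compound, and for TP53INP2, a regulator of autophagy, 1.13-fold and 3.65-fold. PKD1L2 (1.09-fold and 4.79-fold) and GRINA (1.04-fold and 2.05-fold) had the same order. In these 6 genes the NCS change with MD-224 was not called and groups overlapped. CDKN1A rose 3.37-fold with MD-224, against 5.47-fold without a compound (difference −0.70; limma adjusted p = 0.0484), and its change with MI-1061 was 2.01-fold. By list, the difference was positive in 3 and negative in 8 of the 53 listed p53 targets, and positive in 1 and negative in 6 of the 23 listed histone genes. Of all tested genes 4.07% were positive and 7.19% negative, a balance that moved with TMM scaling.

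**Figure D4:**
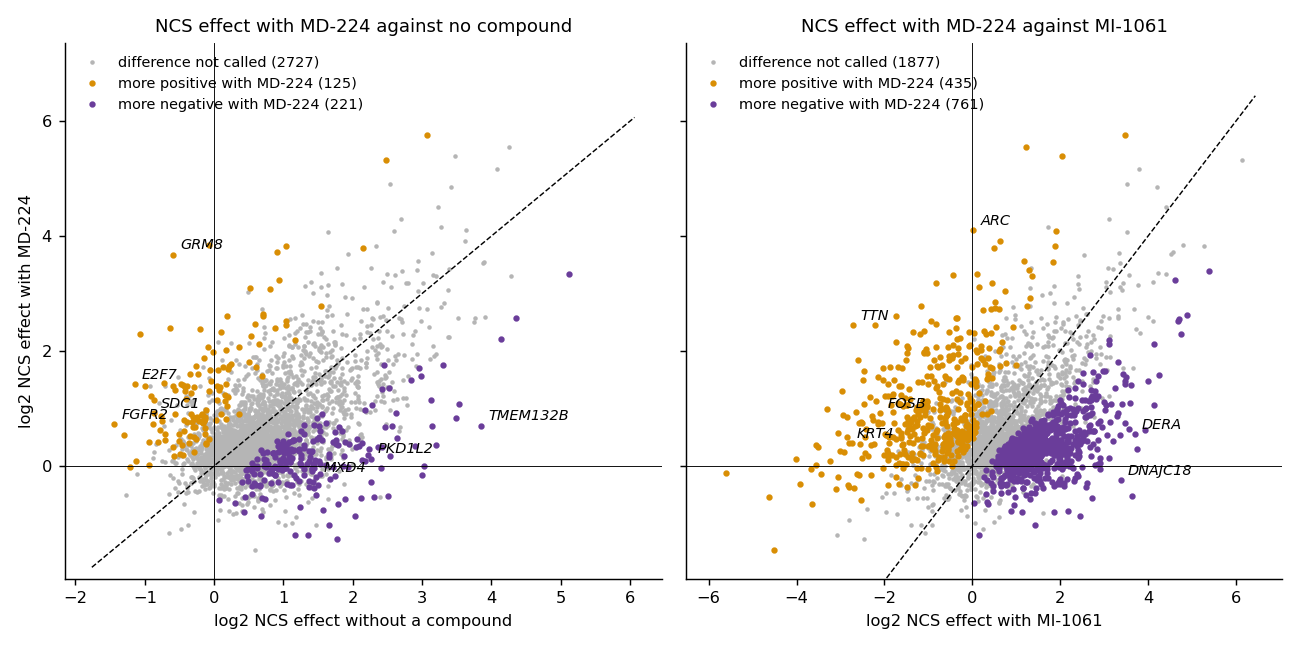
Each point is a tested gene, with its log2 NCS effect with MD-224 on the vertical axis and, on the horizontal axes, its log2 NCS effect without a compound (left) and with MI-1061 (right); the dashed line marks equal effects. Orange points are the 125 and 435 genes with a more positive effect with MD-224 and purple points the 221 and 761 with a more negative one.

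The NCS effect with MD-224 differed from that with MI-1061 in more genes, positively in 435 (14.2%) and negatively in 761 (24.8%); with TMM scaling the split was 538 and 594. The libraries with NCS and MI-1061 take part in the listing, and its part in the balance was not tested. MI-1061 is an MDM2 inhibitor and MD-224 a degrader, given at the same dose and time. The responses to the compounds are compared here only through the NCS effect in each. Of the 435 genes, 241 were called higher by NCS with MD-224 and 362 had an NCS change below 0 with MI-1061. Of the 761 genes, 524 were not called with MD-224.

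Genes with a more positive effect with MD-224 included AP-1 and muscle genes. FOSB, an AP-1 subunit, averaged 407 ± 12.4 with NCS and MD-224 and 216 ± 25.2 with DMSO and MD-224, but 594 ± 65.5 with NCS and MI-1061 and 2637 ± 980 with DMSO and MI-1061 (difference 3.01, SE 0.30; limma adjusted p = 3.96e-06). TTN averaged 167 ± 48.1 and 30.7 ± 14.1 with MD-224, but 135 ± 38.0 and 896 ± 283 with MI-1061 (difference 5.16, SE 0.53; adjusted p = 5.37e-06). ARC rose 17.1-fold with MD-224 and its NCS change with MI-1061 was 1.01-fold. TSPAN31, a tetraspanin gene (0.978-fold and 0.420-fold), and the keratin gene KRT4 (1.32-fold and 0.144-fold) were not called with MD-224. By list, the difference was positive in 6 of 7 listed striated muscle genes (85.7%), 6 of 16 immediate early genes (37.5%) and 5 of 12 NF-kB genes (41.7%). It was positive in 7 of 23 histone genes (30.4%), 3 of 4 haematopoietic markers, 3 of 6 NRF2 targets and 3 of 9 stratified epithelium genes. These shares are to be read against the 14.2% of all tested genes. In the 9 listed interferon-stimulated and 5 listed cholesterol synthesis genes it was positive in 0.

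DNAJC18, a co-chaperone gene, averaged 1211 ± 138 with NCS and MD-224 and 1433 ± 136 with DMSO and MD-224, but 4082 ± 1307 with NCS and MI-1061 and 382 ± 37.9 with DMSO and MI-1061 (difference −3.62, SE 0.25; adjusted p = 1.47e-07). DERA, an enzyme of deoxyribose phosphate breakdown, averaged 2161 ± 432 and 1462 ± 99.4 with MD-224, but 11975 ± 1079 and 941 ± 253 with MI-1061. The NCS changes with MD-224 and with MI-1061 were 1.52-fold and 6.32-fold for CALCOCO1, an autophagy receptor gene, 0.860-fold and 5.04-fold for SCD5, a fatty acid desaturase gene, 1.47-fold and 5.58-fold for AMOTL1, a cell junction gene, and 0.992-fold and 4.83-fold for SATB1, a chromatin organizer gene. Among list members, IL1A rose 10.4-fold with MD-224 and its change with MI-1061 was 41.8-fold (limma adjusted p of the difference = 0.000865). By list, the difference was negative in 9 of 53 listed p53 targets (24.8% of all tested genes were) and positive in 7 (13.2%, against 14.2% of all tested genes).

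**Figure D5:**
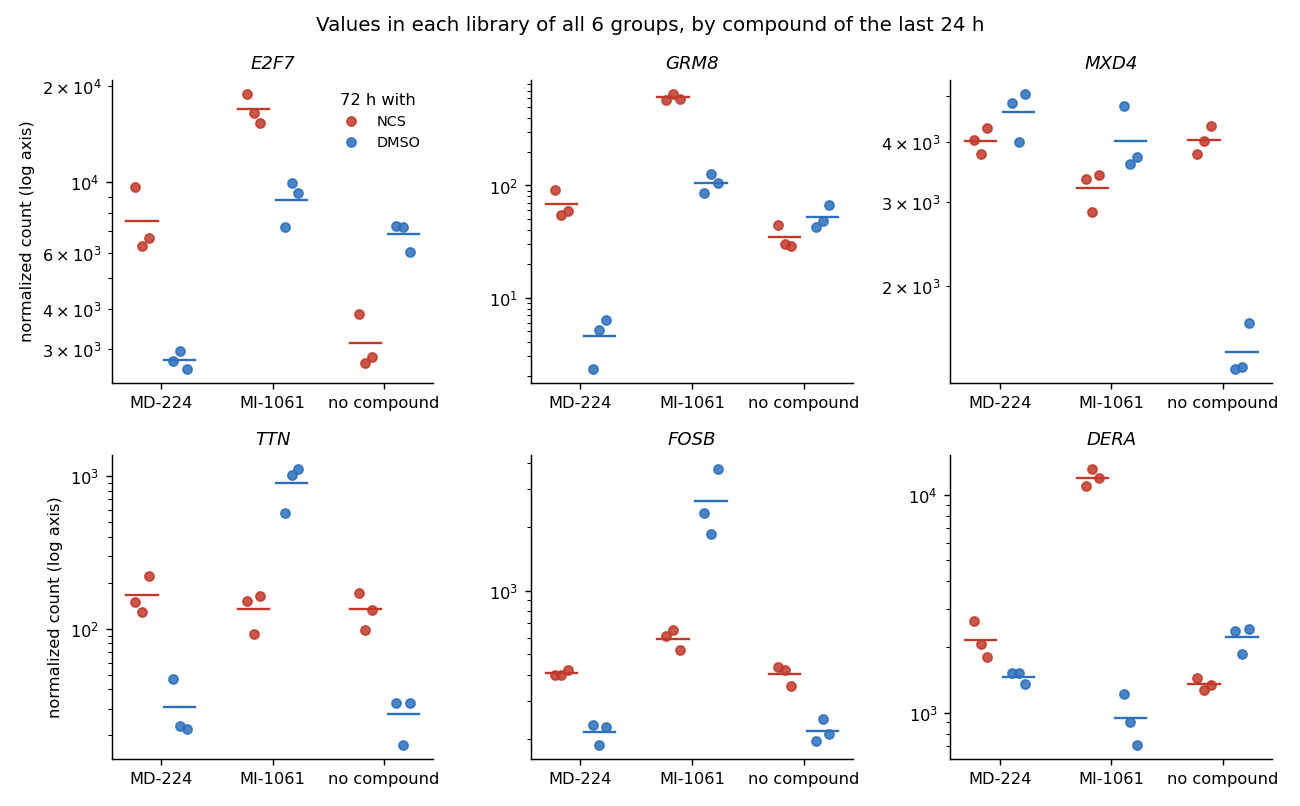
Normalized counts on log axes in each library of the 6 groups, by compound of the last 24 h, with NCS in red left of DMSO in blue; bars are means of 3 libraries. E2F7 and GRM8 lie higher with NCS than with DMSO under MD-224 and lower without a compound, MXD4 overlaps under MD-224 and is higher with NCS without a compound, and TTN and FOSB are higher with NCS under MD-224 and lower under MI-1061.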

How the data were processed

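RNA-seq of SJSA-1 cells gave 18 libraries in 6 groups of 3, and 1 deposited table. Per the submitters' processing notes, HISAT2 2.0.5.2, featureCounts 1.6.3 and DESeq2 2.11.40.6 were used with genome build GRCh38, with no role or order given. The table's values are normalized counts, a signal that the authors deposited without raw counts. Every value column was matched to a sample by name (0 unused). In 13 libraries the deposited signal was made of whole multiples of 1 read (tolerance 0.01, at least 95% of the values below 2000 reads), and in 5, among them NCS + MD-224 replicate 2, it was not.

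Values were tested as log2(normalized count + 1), so changes of low genes are understated. Genes with at least 10 in at least 3 of the 18 libraries were kept (3073 of 3074). limma 3.58.1 (R 4.3.3) with an intensity trend fitted all 6 groups together, p-values were Benjamini-Hochberg adjusted over all tested genes, and a gene was called at an adjusted p under 0.05. The script was tested on simulated data. The differences of NCS effects were contrasts of the same fit. Folds are 2 to the power of the log2 estimate. Alternatives used edgeR 4.0.16 and DESeq2 1.42.0 on recovered reads of 5 libraries, other scalings, filters and pseudocounts, a replicate block and left-out libraries.

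Residuals of like-numbered libraries of both compared groups correlated at 0.13 to 0.38 in 3 pairs, all over 0.1, so the replicate numbers of the titles were taken to pair them. For replicate 3 this is weak: NCS + MD-224 replicate 3 correlated at 0.13 with DMSO + MD-224 replicate 3 and at 0.16 with DMSO + MD-224 replicate 1. The main fit did not use the pairing, and the replicate block is given as an alternative. Replicates of 1 group correlated at 0.981 to 0.986 with NCS and MD-224 and at 0.969 to 0.982 with DMSO and MD-224, and differed by more than sampling noise. The intervals given cover counting error only. Precision rose with level: the median SE of the log2 change was 0.45 for the 769 genes of lowest mean and 0.15 for the 768 of highest mean.

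Gene symbols were current for 2781 genes, synonyms in RefSeq for 219 and unmatched for 74; loci and promoters are those of RefSeq on GRCh38.p14. Genes were named by rule: MDM2, CDKN1A and ISG15; the 12 largest rises and falls (called, a mean of at least 50, no overlap, a current symbol); for each list, its 4 members of smallest p; and the 6 genes in each direction with the smallest p in each difference of NCS effects. Some genes under this rule are not reported here. SFN, BAX, CXCL1, CXCL3 and IL6 were named after their values were seen. The comparison, lists and members were chosen with earlier results of these data known.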

Additional observations from a re-analysis of the deposited data

Results flagged for a closer look

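The NCS effect differed between cells with MD-224 and cells without a compound in 12 genes singled out by the smallest p (limma, adjusted p under 0.05 for the difference itself; 3 libraries in each of 4 groups). In log2 units, the NCS effect with MD-224 minus the NCS effect without a compound was 4.26 for GRM8, 2.57 for E2F7, 2.17 for FGFR2, 1.84 for NEMP2, 1.79 for SDC1 and 1.72 for NCEH1. It was −3.15 for TMEM132B, −2.13 for PKD1L2, −1.69 for TP53INP2, −1.67 for MXD4, −1.47 for CDKN2B and −0.98 for GRINA.

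The same held for 11 genes between cells with MD-224 and cells with MI-1061. The NCS effect with MD-224 minus the NCS effect with MI-1061 was 5.16 for TTN, 4.08 for ARC, 3.20 for KRT4, 3.01 for FOSB and 1.22 for TSPAN31. It was −3.62 for DNAJC18, −3.15 for DERA, −2.55 for SCD5, −2.28 for SATB1, −2.06 for CALCOCO1 and −1.92 for AMOTL1.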

How the results depend on the processing

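For the NCS effect with MD-224 (1198 genes called higher and 18 lower), TMM gave 428 and 224, the median of ratios 394 and 288, the compared groups alone 1021 and 11, and the replicate block 1472 and 40. All 428 TMM calls were among the 1198. Leaving out 1 library gave 832 to 1111 higher and 7 to 25 lower, and leaving out replicate 3 of every group 475 and 1. Against the effect without a compound (125 and 221), TMM gave 201 and 127, the median of ratios 172 and 136, the compared groups alone 76 and 158, the block 212 and 400, and 1 left-out library 63 to 150 and 107 to 262. Without replicate 1, 2 or 3 of every group it was 51 and 109, 74 and 104, or 3 and 1. Against the effect with MI-1061 (435 and 761), the block gave 536 and 945, TMM 538 and 594, 1 left-out library 363 to 458 and 647 to 781, and no replicate 3 in any group 113 and 243. In these differences 16 and 15 of 18 like-numbered pairs correlated over 0.1 (−0.02 to 0.47 and −0.05 to 0.43), so the numbers were not taken as pairs. With 5 libraries, chosen after seeing the data, edgeR called 833 and 14, DESeq2 946 and 22, and limma 801 and 18. The same tests on all 6 libraries were not run, since reads of NCS + MD-224 replicate 2 were not recovered. ISG15 reversed (log2 0.34; −0.11 with TMM and −0.16 with the median of ratios). The block changed no other call of a gene named for the NCS effect with MD-224 than that of ISG15. Without replicate 3 of every group, 27 results of named genes (changes and differences) were no longer called. The cause was not tested.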
